A study of Mus musculus with 9 samples.

Results

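The data described here compare the livers of mice refed for 20 h with the livers of mice fasted for 16 h. Both groups were male C57BL/6J mice kept in a 12-h light and dark cycle. The fast of the fasted mice began at ZT9 and ended at ZT1 of the next day, where ZT is zeitgeber time, counted in hours from lights on. The refed mice were fasted for 16 h and then fed again for 20 h, and their hour of harvest is not given in the sources used here. Effects of food and of the hour cannot be told apart in this comparison. The livers of a condition were pooled into 1 polyA+ RNA-seq library, the number of mice in a pool is not given in the sources used here, and no difference between the 2 libraries has a replicate check. Refed levels were set directly over fasted levels, as log2 ratios of scaled counts, and the library of mice fed ad libitum entered the scaling but no ratio. The genes described are the 10967 of 20409 named genes with at least 100 counts in the refed or the fasted library. For each gene the RefSeq transcript with the highest total over the 9 libraries of the series was kept, and levels are TMM-scaled CPM, where CPM relates a count to the library total and TMM corrects that total for a few dominant genes. Another 6 libraries of the series, from male C57BL/6J mice kept for 1 week in the light and dark cycle and then for 6 weeks in constant darkness (DD) and killed every 4 h of circadian time (CT), at CT1 through CT21, serve to show how far a gene ranged over a day without an imposed fast.

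The liver stores and releases fuel as food comes and goes. During a fast, glucagon and glucocorticoids drive gluconeogenesis, the making of glucose from amino acids, lactate and glycerol, and fatty acids arriving from fat tissue activate the nuclear receptor PPARa, whose target genes break fatty acids down and make ketone bodies. After a meal, insulin and sugar restrain these genes and switch on glycolysis and the synthesis of fatty acids through the factors SREBP-1c and ChREBP, while SREBP-2 controls cholesterol synthesis. Feeding time is also a strong signal for the liver clock, in which BMAL1 (Arntl) and CLOCK activate the Per and Cry genes, whose proteins inhibit them in turn.

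The total over named genes was 48162213 counts in the refed library and 44314333 in the fasted library, against 43485652 to 58179178 in the DD libraries. Of the DD libraries, CT1 and CT17 stood apart, with summed levels of acute phase genes of 169841 and 184322 CPM against 27638 to 38977 CPM in the other 4, and counts over genes of levels inside, above or below the DD range are also given without them. Of the 10967 genes, 601 (5.48%) were at least 2-fold higher in the refed library and 380 (3.46%) were at least 2-fold lower, and these are the shares against which the gene lists are read. At least 8-fold differences were fewer, with 42 genes (0.383%) higher and 28 genes (0.255%) lower. The median log2 ratio was 0.08 with quartiles of -0.21 and 0.38, and 8382 genes (76.4%) differed by less than 1.5-fold. For 419 of the higher and 283 of the lower genes the whole 95% counting interval of the ratio lay beyond 2-fold, an interval that covers counting error only and not differences between mice. The higher genes took 9.01% of all counts in the refed library and 2.91% in the fasted library, and the lower genes took 3.27% in the refed library and 10.5% in the fasted library. Higher genes made up 61.3% of the genes that differed at least 2-fold, and 73.2% when counts were left unscaled, which moved the median of all genes by 0.14 on the log2 scale. The plot of ratio against level shows most cholesterol synthesis genes and 10 of 18 fatty acid synthesis genes above the 2-fold line and most PPARa targets below it.

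**Figure D1:**
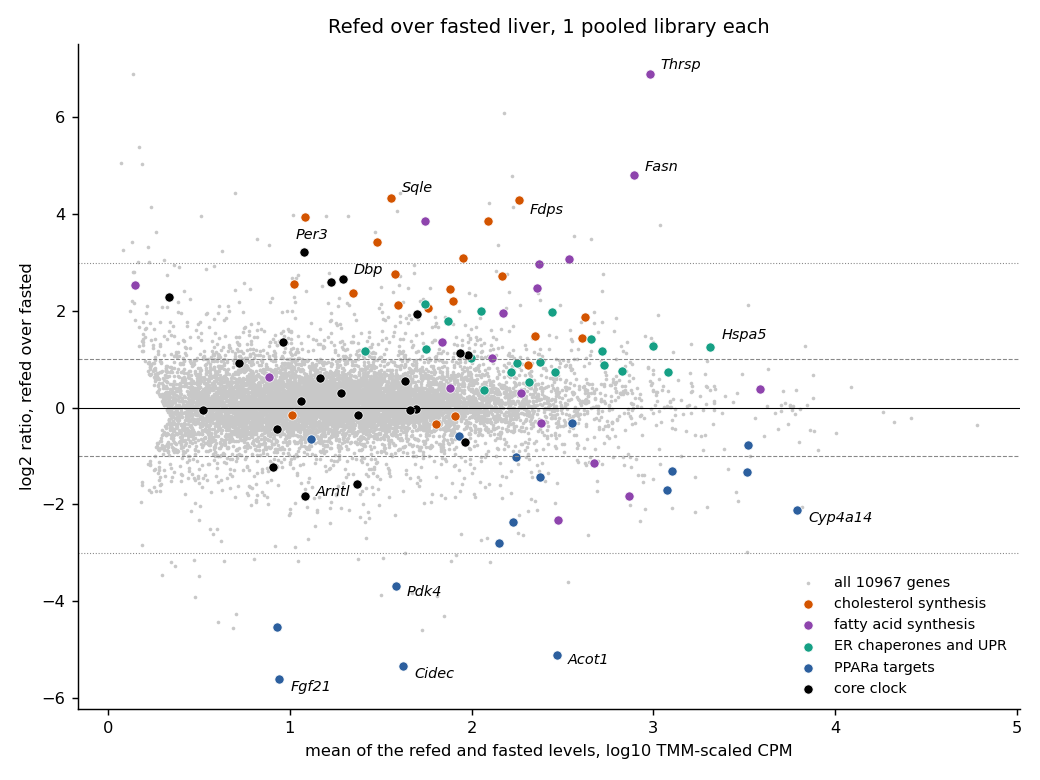
Each point is 1 of 10967 genes, placed by the mean of its refed and fasted levels (x axis, log10 of TMM-scaled CPM) and by its log2 ratio of refed over fasted (y axis), with dashed lines at 2-fold and dotted lines at 8-fold. Coloured points are members of 5 groups of genes. Thrsp (log2 ratio 6.89) and Fasn (4.80) lie at the top, and Fgf21 (-5.60), Cidec (-5.33) and Acot1 (-5.11) lie at the bottom.

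Genes of few counts behaved differently from genes of many. Among 3354 genes that reached 10 to 99 counts in the library with more, 288 were at least 2-fold higher and 821 at least 2-fold lower in the refed library, and among 4829 genes with 1 to 9 counts the numbers were 568 and 1343. Above the minimum of 100 counts the higher genes outnumbered the lower ones in each count class. The refed library had at least 1 count in 17470 genes and the fasted library in 18594, although the fasted library was the smaller, and the DD libraries ranged from 15461 to 18154 genes. The plot by count class shows this change of sign. Part of the spread among genes with fewer than 10 counts is counting error, and genes under 100 counts are not described further except where a list member is named.

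**Figure D2:**
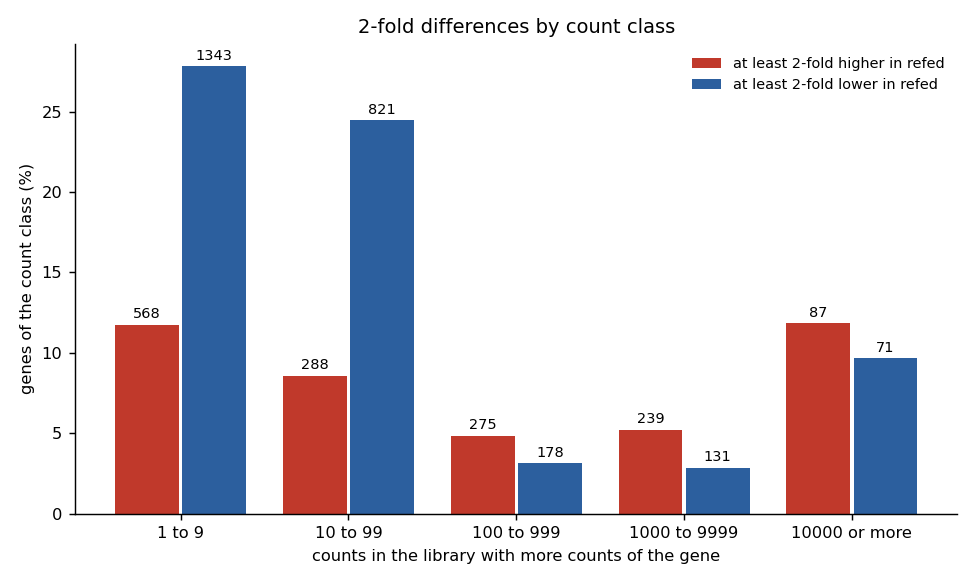
Bars give the share of genes (y axis, percent of the class) at least 2-fold higher and at least 2-fold lower in the refed library, by the counts of the gene in whichever of the refed and fasted libraries had more (x axis), with the number of genes above each bar. Lower genes outnumber higher ones in the classes of 1 to 9 counts (1343 against 568) and 10 to 99 counts (821 against 288), and higher genes outnumber lower ones in the classes of 100 counts and more.

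Leaving out predicted genes, the largest ratio was that of Thrsp, a nuclear protein that promotes fatty acid synthesis, with 1895 CPM refed against 16.0 CPM fasted (log2 ratio 6.89, counting interval 6.78 to 7.0). Mup18, a major urinary protein, followed with 297 CPM refed against 4.36 CPM fasted (log2 ratio 6.09), and its refed level was above and its fasted level below the DD range of 14.1 to 23.1 CPM. The major urinary protein genes are near-identical copies, so the assignment of reads to Mup18 is uncertain. Other genes near the top were Hsd3b5, a steroid reductase of male liver (322 CPM refed, 11.7 CPM fasted, log2 ratio 4.79), and Aacs, which activates acetoacetate for lipid synthesis (73.3 CPM refed, 4.41 CPM fasted, log2 ratio 4.06). The glutathione transferase gene Gsta1, also one of several close copies, had 456 counts in the refed library and 19 in the fasted library (log2 ratio 4.44). Ces2b, Hapln1 and Serpina9 reached log2 ratios of 5.39, 5.06 and 5.03 on only 3, 3 and 4 counts in the fasted library, against 139, 110 and 144 counts in the refed library, and their counting intervals were wide, 3.82 to 7.69 for Ces2b, 3.47 to 7.36 for Hapln1 and 3.64 to 6.92 for Serpina9. Car3, a carbonic anhydrase, combined a large ratio with a high level, at 2028 CPM refed against 148 CPM fasted (log2 ratio 3.78).

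At the other end stood Fgf21, the fasting hormone of the liver, with 17 counts in the refed library and 748 in the fasted library (log2 ratio -5.60, counting interval -6.39 to -4.91). Cidec, a protein that enlarges lipid droplets, had 2.04 CPM refed against 82.2 CPM fasted (log2 ratio -5.33), and Acot1, a cytosolic thioesterase that splits acyl-CoA, had 16.7 CPM refed against 574 CPM fasted (log2 ratio -5.11). In all 3 genes the fasted level lay above the DD range and the refed level inside it. Rad51b, a DNA repair gene, had 0.396 CPM refed against 9.30 CPM fasted (log2 ratio -4.55). Gadd45b, a stress-response gene, stood at 0.375 CPM refed against 5.65 CPM fasted (log2 ratio -3.91), Slc25a30, a mitochondrial carrier, at 6.20 CPM refed against 88.3 CPM fasted (log2 ratio -3.83), and Defb1, a defensin, at 0.521 CPM refed against 5.83 CPM fasted (log2 ratio -3.49).

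In absolute terms the differences were carried by abundant genes. Among the 10 largest gains in CPM in the refed library were the fibrinogen chains Fga, Fgb and Fgg, the last of which stood at 5439 CPM refed against 3111 CPM fasted, transferrin (Trf), at 13959 CPM refed against 10388 CPM fasted, and Cyp2c29, a drug-metabolising P450, at 5366 CPM refed against 1235 CPM fasted. Ahsg (fetuin-A) and the protease inhibitor gene Serpina1c also belonged to this group, with log2 ratios of only 0.37 and 0.69. The 10 largest losses included albumin (Alb), with 53009 CPM refed against 67973 CPM fasted (log2 ratio -0.36), and Mat1a, the liver enzyme that makes S-adenosylmethionine, with 2564 CPM refed against 10609 CPM fasted (log2 ratio -2.05). Serpina3k, Mup20, Mup3 and Apob were the other losses with ratios under 2-fold, between -0.88 for Mup3 and -0.22 for Serpina3k.

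**Figure D3:**
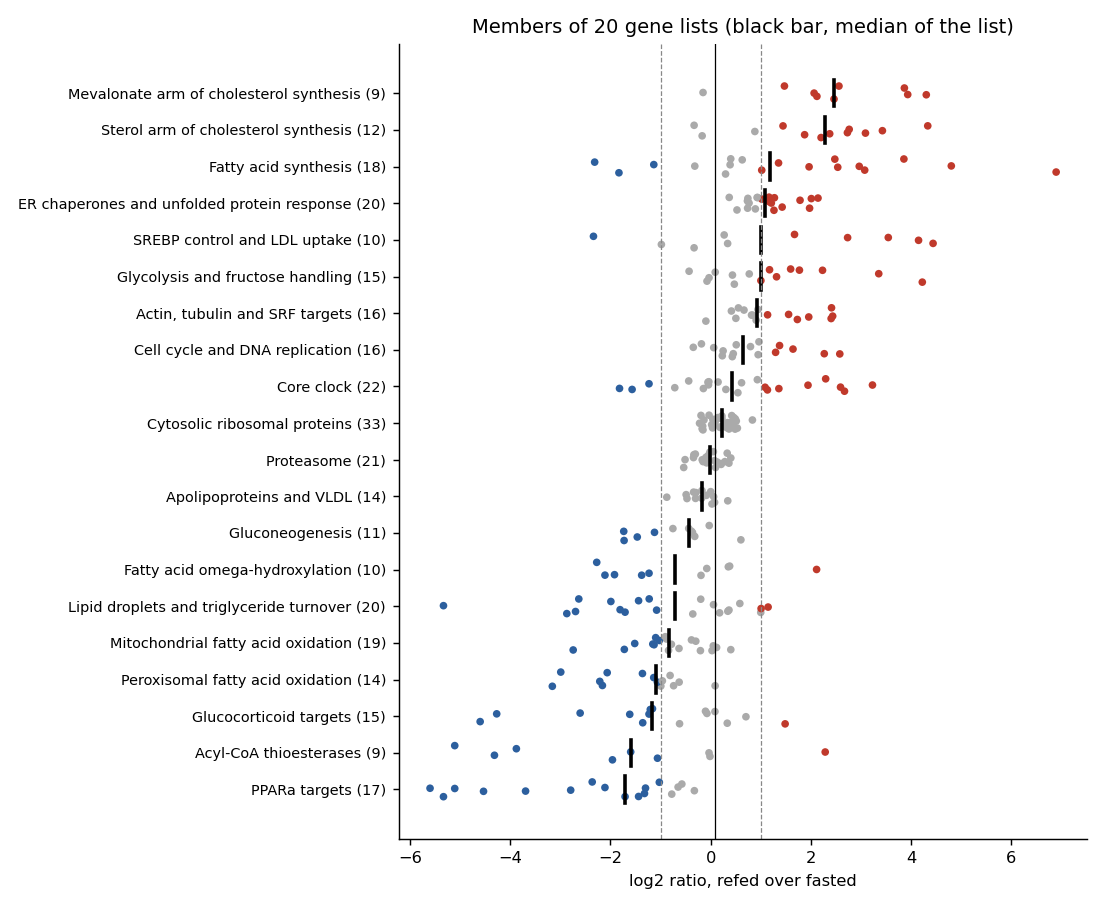
Each point is a gene of 1 of 20 lists (y axis, with the number of members that reached 100 counts), placed by its log2 ratio of refed over fasted (x axis). Red points are at least 2-fold higher and blue points at least 2-fold lower in the refed library, black bars are list medians, the solid line is the median of all 10967 genes (0.08) and dashed lines mark 2-fold. The list medians run from 2.46 for the mevalonate arm of cholesterol synthesis to -1.71 for PPARa targets.

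Cholesterol synthesis was higher in the refed library along nearly its whole length. The pathway builds the isoprenoid farnesyl diphosphate from acetyl-CoA (the mevalonate arm) and turns it into cholesterol through squalene and lanosterol (the sterol arm). In the mevalonate arm 8 of 9 members were at least 2-fold higher and 0 lower, with a median log2 ratio of 2.46, and in the sterol arm 9 of 12 were higher and 0 lower, with a median of 2.29. Over all genes the median was 0.08.

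In the mevalonate arm Fdps, which makes farnesyl diphosphate, stood at 347 CPM refed against 17.6 CPM fasted (log2 ratio 4.30, counting interval 4.20 to 4.41), the decarboxylase gene Mvd at 22.8 CPM refed against 1.49 CPM fasted (log2 ratio 3.93) and the isomerase gene Idi1 at 229 CPM refed against 15.7 CPM fasted (log2 ratio 3.86). The entry enzyme Hmgcs1 had a smaller difference, 330.2 CPM refed against 119 CPM fasted (log2 ratio 1.47), and the kinase gene Mvk lay between them (18 CPM refed, 3.05 CPM fasted, log2 ratio 2.56). Ggps1, which leads away from cholesterol to geranylgeranyl diphosphate, was the 1 member without a 2-fold difference (9.72 CPM refed, 10.8 CPM fasted, log2 ratio -0.15).

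In the sterol arm the first oxygenation is made by squalene epoxidase (Sqle), which had 68.4 CPM refed against 3.40 CPM fasted (log2 ratio 4.33, counting interval 4.09 to 4.58). Nsdhl (55.0 CPM refed, 5.12 CPM fasted, log2 ratio 3.43) and Msmo1 (160.4 CPM refed, 18.9 CPM fasted, log2 ratio 3.09), which remove methyl groups from the sterol ring, came next. Cyp51, the lanosterol demethylase, stood at 254 CPM refed against 38.4 CPM fasted (log2 ratio 2.73), and Lss, which closes the ring, at 65.9 CPM refed against 9.71 CPM fasted (log2 ratio 2.76). Dhcr7, a late step, had a log2 ratio of 2.37, and Ebp (0.88), Hsd17b7 (-0.17) and Tm7sf2 (-0.33) stayed under 2-fold. Fdft1, squalene synthase, had a log2 ratio of 2.20 and shares exon sequence with Ctsb on the opposite strand (log2 ratio 0.59). The sources used here do not say whether reads were counted by strand, and reads of such partners cannot be told apart without it.

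The genes that set cholesterol uptake and the activity of SREBP did not all differ in 1 direction. Srebf1, the gene of SREBP-1, stood at 319 CPM refed against 18 CPM fasted (log2 ratio 4.15), whereas Srebf2, the gene of SREBP-2, stood at 19.2 CPM refed against 15.2 CPM fasted (log2 ratio 0.34), below its DD range of 24.3 to 43.0 CPM in both libraries. The 2 genes whose proteins hold SREBP in the endoplasmic reticulum differed in opposite directions, Insig1 with 674 CPM refed against 57.8 CPM fasted (log2 ratio 3.54) and Insig2 with 278 CPM refed against 1406 CPM fasted (log2 ratio -2.34). Stard4, a cholesterol carrier, was higher (70.0 CPM refed, 10.5 CPM fasted, log2 ratio 2.73), and the escort gene Scap (52.3 CPM refed, 65.8 CPM fasted, log2 ratio -0.33) and the liver X receptor gene Nr1h3 (119 CPM refed, 98.9 CPM fasted, log2 ratio 0.27) differed by less than 2-fold. In all, 5 of these 10 genes reached 2-fold higher and 1 lower.

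Promoter sequences are shown for a few genes of cholesterol synthesis, the clock and protein folding and for Fgf21, chosen after the values and motif counts were seen. The RefSeq promoter table (GRCm38.p6) held a window of 300 bases, 250 before and 50 after the start, for 8843 of the 10967 genes (80.6%), and 9 motifs were searched on both strands, without regard to overlaps between motifs. The CCAAT box (CCAAT), bound by the factor NF-Y, was found in 15 of 16 cholesterol synthesis genes with a window (93.8%), in 55.9% of genes at least 2-fold higher, in 51.8% of genes at least 2-fold lower and in 43.4% of all genes. Its share was also high in lists that were not higher. It was found in 7 of 8 acyl-CoA thioesterase genes (87.5%) and 10 of 11 serine, one-carbon and methionine genes (90.9%). The sterol regulatory element in its strict form (TCACNCCAC) was found in 1 of these 16 genes, Hmgcs1, in 2.90% of the higher genes, 1.33% of the lower genes and 1.46% of all genes. A match is only a description of these letters in this window. The 250 bases before the start are printed for Hmgcs1 with the sterol regulatory element in capitals, and for Mvd and Idi1, both named by the study, with each CCAAT box in capitals (ATTGG on the reverse strand).
Hmgcs1 (chr13:119690101-119690350, + strand): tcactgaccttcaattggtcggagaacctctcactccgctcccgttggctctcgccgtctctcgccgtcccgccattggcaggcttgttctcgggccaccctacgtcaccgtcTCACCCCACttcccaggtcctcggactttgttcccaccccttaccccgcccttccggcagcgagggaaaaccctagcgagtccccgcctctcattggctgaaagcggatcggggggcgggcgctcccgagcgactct
Mvd (chr8:122443423-122443672, - strand): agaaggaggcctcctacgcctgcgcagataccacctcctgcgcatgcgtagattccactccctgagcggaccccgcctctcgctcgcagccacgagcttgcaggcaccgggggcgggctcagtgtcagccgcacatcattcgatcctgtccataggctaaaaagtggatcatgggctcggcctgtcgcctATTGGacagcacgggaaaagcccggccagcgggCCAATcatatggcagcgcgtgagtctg
Idi1 (chr13:8885356-8885605, + strand): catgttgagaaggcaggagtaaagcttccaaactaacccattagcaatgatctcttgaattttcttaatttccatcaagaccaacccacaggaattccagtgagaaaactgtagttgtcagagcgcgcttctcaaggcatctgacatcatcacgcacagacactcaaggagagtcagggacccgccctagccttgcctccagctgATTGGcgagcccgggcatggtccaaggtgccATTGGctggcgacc

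Fatty acid synthesis was divided. The enzymes that make saturated fatty acids from citrate were higher in the refed library, and the elongase genes Elovl2, Elovl3 and Elovl5 were lower. Of 18 members 10 were at least 2-fold higher and 3 at least 2-fold lower, and their median log2 ratio was 1.19. Fatty acid synthase (Fasn) stood at 1507 CPM refed against 54.1 CPM fasted (log2 ratio 4.80, counting interval 4.74 to 4.86). Acly, which makes cytosolic acetyl-CoA from citrate, stood at 614 CPM refed against 73.0 CPM fasted (log2 ratio 3.07), and Acaca, acetyl-CoA carboxylase 1, at 389 CPM refed against 69.9 CPM fasted (log2 ratio 2.48), with the refed level above and the fasted level below the DD range of 170.2 to 320.0 CPM. Mid1ip1, a paralog of Thrsp that activates this carboxylase, had 103 CPM refed against 7.14 CPM fasted (log2 ratio 3.85). Elovl6, the elongase of palmitate, was higher (414 CPM refed, 53.1 CPM fasted, log2 ratio 2.96), whereas Elovl5 (323 CPM refed, 1151 CPM fasted, log2 ratio -1.83), Elovl3 (100.2 CPM refed, 499 CPM fasted, log2 ratio -2.32) and Elovl2 (log2 ratio -1.14) were lower. Elovl3 shares exon sequence with Pitx3 on the opposite strand (log2 ratio -2.51). Scd1, the main desaturase, differed by less than 2-fold and was abundant in both libraries (4392 CPM refed, 3358 CPM fasted, log2 ratio 0.39). Acss2 (log2 ratio 1.96), Acacb (1.35) and malic enzyme (Me1, 1.02) were also higher, and the desaturases Fads1 (0.30) and Fads2 (-0.32) stayed under 2-fold.

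Glycolysis and fructose handling genes were higher or differed little. The list had 8 of 15 members at least 2-fold higher and 0 lower, with a median log2 ratio of 1.00. Liver pyruvate kinase (Pklr), the last step, had 254 CPM refed against 24.9 CPM fasted (log2 ratio 3.35, counting interval 3.26 to 3.44) and shares exon sequence with Hcn3 on the opposite strand, whose ratio was 3.37. Fructose handling was higher as well, with Khk, the fructokinase (620.3 CPM refed, 182 CPM fasted, log2 ratio 1.77), and Tkfc, the triose kinase (394 CPM refed, 83.8 CPM fasted, log2 ratio 2.23). The glucose transporter Slc2a2 had a log2 ratio of 1.60 and Mlxipl, the gene of ChREBP, of 1.17. Tpi1 had a log2 ratio of 0.09 and Pfkl of 0.43, while Gapdh stood just at 2-fold (1.00). In the pentose phosphate pathway, which supplies NADPH, 1 of 7 members was at least 2-fold higher, Pgd (log2 ratio 1.65), and all members lay above 0.

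Glycogen genes differed in both directions, 3 of 12 at least 2-fold higher and 1 lower. The phosphorylase Pygl (982 CPM refed, 272 CPM fasted, log2 ratio 1.86), the branching enzyme Gbe1 (193 CPM refed, 63.6 CPM fasted, log2 ratio 1.60) and Ppp1r3b, a subunit that directs phosphatase to glycogen (425 CPM refed, 154 CPM fasted, log2 ratio 1.46), were higher. Ppp1r3g, another such subunit, was lower, with 0.875 CPM refed against 7.85 CPM fasted (log2 ratio -3.17). Glycogen synthase (Gys2) had a log2 ratio of -0.25.

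**Figure D4:**
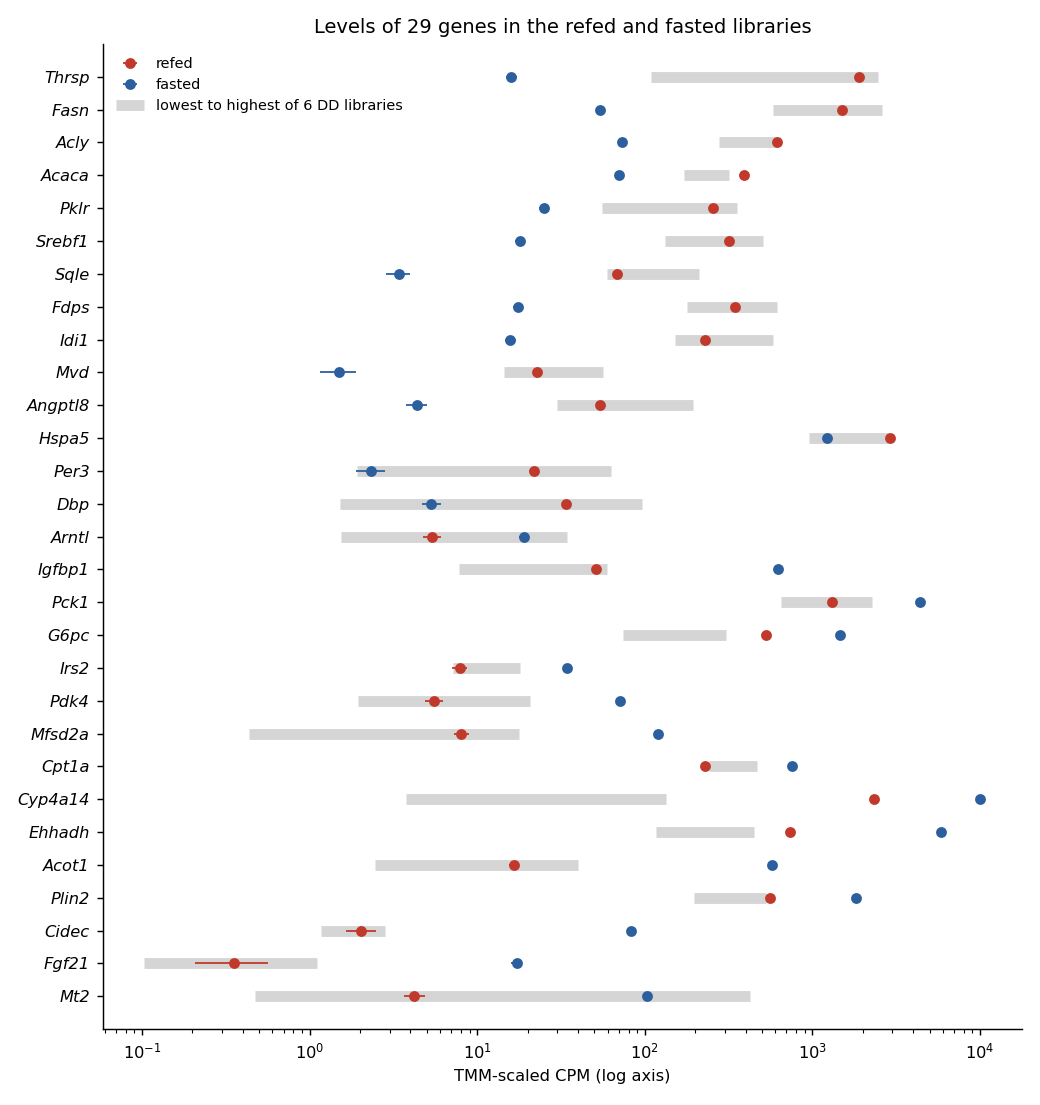
Levels of 29 named genes (y axis) in the refed library (red) and the fasted library (blue), in TMM-scaled CPM on a log axis, with exact 95% Poisson intervals as thin lines, often smaller than the points, and the range of the 6 DD libraries as grey bars. From Thrsp to Angptl8 the refed point lies on the grey bar, or right of it for Acaca, and the fasted point left of it. From Igfbp1 to Fgf21 the refed point lies on the bar for most genes, right of it for G6pc, Cyp4a14, Ehhadh and Plin2 and left of it for Cpt1a, and the fasted point lies right of the bar.

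Some gluconeogenic genes were lower in the refed library. Pck1, phosphoenolpyruvate carboxykinase, had 1315 CPM refed against 4377 CPM fasted (log2 ratio -1.74, counting interval -1.75 to -1.72), and G6pc, glucose-6-phosphatase, had 529 CPM refed against 1462 CPM fasted (log2 ratio -1.47). The refed level of Pck1 lay inside its DD range, and that of G6pc above its DD range of 74.0 to 307 CPM. Ppargc1a, the coactivator PGC-1a, had 6.33 CPM refed against 13.8 CPM fasted, with a counting interval of the log2 ratio (-1.33 to -0.92) that crosses 2-fold. Sik1, a kinase induced by cAMP, was lower (11.6 CPM refed, 38.4 CPM fasted, log2 ratio -1.73). Fbp1 (log2 ratio -0.03), Pcx (-0.44) and Pck2 (-0.32) differed by less than 2-fold, and the list had 4 of 11 members at least 2-fold lower and 0 higher.

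Several genes of the insulin, IGF and growth hormone axis were lower in the refed library. Igfbp1, a secreted IGF-binding protein, had 51.4 CPM refed against 625 CPM fasted (log2 ratio -3.60, counting interval -3.66 to -3.54). Irs2, the insulin receptor substrate that is raised in fasting, had 7.89 CPM refed against 34.2 CPM fasted (log2 ratio -2.12). The leptin receptor gene Lepr stood at 7.04 CPM refed against 45.5 CPM fasted (log2 ratio -2.69) and Socs2, a feedback inhibitor of growth hormone, at 2.96 CPM refed against 9.02 CPM fasted (log2 ratio -1.61). The receptor and kinase genes themselves differed little, with Insr at a log2 ratio of -0.02, Irs1 at -0.13, Akt1 at -0.03, Igf1 at -0.12 and Ghr at 0.79. In this list 5 of 18 members were at least 2-fold lower and 0 higher.

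PPARa targets had the lowest median of the 54 gene lists, -1.71, and 13 of its 17 members were at least 2-fold lower and 0 higher in the refed library. Several lists share members, so their counts are not separate. Acot1, for example, is a member here and of the acyl-CoA thioesterases. Ppara itself differed by less than 2-fold (315 CPM refed, 395 CPM fasted, log2 ratio -0.33). Pdk4, the kinase that shuts pyruvate dehydrogenase, had 5.52 CPM refed against 71.4 CPM fasted (log2 ratio -3.69, counting interval -3.88 to -3.51). Cpt1b, the muscle form of carnitine palmitoyltransferase, had 34 counts in the refed library and 714 in the fasted library (log2 ratio -4.53), and Angptl4, an inhibitor of lipoprotein lipase, had 54.9 CPM refed against 283 CPM fasted (log2 ratio -2.36). Cpt1b shares exon sequence with a predicted gene on the same strand, so reads could be shared. Vnn1, a pantetheinase, was lower (35.6 CPM refed, 247 CPM fasted, log2 ratio -2.79), and Retsat, a retinol saturase, stood at 734 CPM refed against 1808 CPM fasted (log2 ratio -1.30).

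The omega-hydroxylases Cyp4a14 and Cyp4a10 were among the most abundant transcripts of the fasted liver. Cyp4a14 stood at 2329.6 CPM refed against 10057 CPM fasted (log2 ratio -2.11), against a DD range of 3.77 to 134 CPM. Cyp4a10 stood at 1216 CPM refed against 4599 CPM fasted (log2 ratio -1.92), against a DD range of 7.91 to 168 CPM. The list of 10 genes had 5 at least 2-fold lower and 1 higher. Cyp4a14 and Cyp4a10 were lower in the refed library and still above all 6 DD libraries there. Members of the Cyp4a family are close copies that could share reads. Cyp4f14, which omega-hydroxylates leukotrienes and other lipids, was higher (298 CPM refed, 69.0 CPM fasted, log2 ratio 2.11).

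Fatty acid oxidation was lower in both organelles. In peroxisomes 8 of 14 members were at least 2-fold lower and 0 higher (median log2 ratio -1.10), led by the acetyl transferase Crat (15.6 CPM refed, 139 CPM fasted, log2 ratio -3.16) and by Ehhadh, the bifunctional enzyme (735 CPM refed, 5843 CPM fasted, log2 ratio -2.99). The peroxisomal thiolase Acaa1b had 624 CPM refed against 2788 CPM fasted (log2 ratio -2.16), and Pex11a, which promotes peroxisome division, had 13.4 CPM refed against 62.2 CPM fasted (log2 ratio -2.21). Catalase (Cat) did not follow them (log2 ratio 0.09). In mitochondria 7 of 19 members were at least 2-fold lower and 0 higher (median -0.84). Without scaling, 4 of these members were at least 2-fold lower. The entry step Cpt1a had 228 CPM refed against 753 CPM fasted (log2 ratio -1.72), and the carnitine transporter Slc22a5 had the lowest ratio of this list (29.4 CPM refed, 197 CPM fasted, log2 ratio -2.74). The acyl-CoA dehydrogenase gene Acadm (log2 ratio -1.16) and Eci2 (-1.52) were also lower, while Acaa2 (0.12), Etfa (0.05) and Etfb (0.03) were near 0.

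Most acyl-CoA thioesterase genes were lower. Acot2 (6.75 CPM refed, 134 CPM fasted, log2 ratio -4.31) and Acot3 (4.06 CPM refed, 59.7 CPM fasted, log2 ratio -3.88) followed Acot1, and these genes lie in 1 cluster of close copies, so reads could be shared. Acot11 was higher in the refed library (17.4 CPM refed, 3.58 CPM fasted, log2 ratio 2.28), and shares exon sequence with Fam151a on the opposite strand (log2 ratio 2.25). Of 9 members 6 were at least 2-fold lower and 1 higher. Uptake, binding and activation genes differed in both directions, 3 of 16 higher and 3 lower. The transporter gene Slc27a1 had the lowest ratio of them (3.33 CPM refed, 21.9 CPM fasted, log2 ratio -2.71). Acsl1, which activates long-chain fatty acids, was lower (765 CPM refed, 3169.6 CPM fasted, log2 ratio -2.05), whereas its relative Acsl3 was higher (68.6 CPM refed, 18.9 CPM fasted, log2 ratio 1.86). Acsl3 shares exon sequence with Utp14b on the same strand (log2 ratio 1.94), so reads could be shared. Fabp5, a fatty acid binding protein, stood at 85.2 CPM refed against 11 CPM fasted (log2 ratio 2.96), and Fabp1, the abundant liver form, at 2439.6 CPM refed against 4181 CPM fasted (log2 ratio -0.78). In ketogenesis the ketone and lactate transporter Slc16a1 had 89.3 CPM refed against 333 CPM fasted (log2 ratio -1.90), while Bdh1 (0.06) differed by less than 2-fold.

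Many genes of lipid droplets and triglyceride turnover were lower. Of 20 members 10 were at least 2-fold lower and 2 higher. Coat proteins were among the lower genes, Plin2 with 557 CPM refed against 1821 CPM fasted (log2 ratio -1.71), Plin5 with 32.6 CPM refed against 211 CPM fasted (-2.70) and Plin4 with 2.58 CPM refed against 18.9 CPM fasted (-2.87). The lipase gene Pnpla2 (10.1 CPM refed, 40.2 CPM fasted, log2 ratio -1.99) and the gene of its inhibitor, G0s2 (122 CPM refed, 754 CPM fasted, log2 ratio -2.63), were both lower. Gpam, the first acyltransferase of glycerolipid synthesis, had a log2 ratio of 1.01, Dgat2 of 1.00, Dgat1 of -0.36 and Lpin1 of 0.06, and Lpin2, like Lpin1 a phosphatidate phosphatase of triglyceride synthesis, was lower (244 CPM refed, 515 CPM fasted, log2 ratio -1.08). Apolipoprotein and VLDL genes had 0 of 14 members beyond 2-fold in either direction, with Apoa5 the farthest (-0.88). Mfsd2a, a transporter of lysophosphatidylcholine, stood at 8.06 CPM refed against 120.2 CPM fasted (log2 ratio -3.90, counting interval -4.05 to -3.75), above its DD range of 0.433 to 17.7 CPM in the fasted library only.

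Among 12 hepatokines, signalling proteins that the liver secretes, 3 were at least 2-fold higher and 4 lower in the refed library. Angptl8, the hepatokine on which the study centres and a regulator of lipoprotein lipase, had 54.2 CPM refed against 4.38 CPM fasted (Poisson intervals 52.2 to 56.3 refed and 3.78 to 5.05 fasted, log2 ratio 3.63, counting interval 3.42 to 3.85). Its DD range was 29.8 to 193 CPM, so the refed level lay inside that range and the fasted level below it. Angptl6 (21.9 CPM refed, 22.3 CPM fasted, log2 ratio -0.02) differed by less than 2-fold, and Angptl4 was lower, as given above. Lect2, a secreted protein raised in fatty liver, was higher (138 CPM refed, 53.8 CPM fasted, log2 ratio 1.35). Gdf15 (2.21 CPM refed, 4.96 CPM fasted, log2 ratio -1.17) and follistatin (Fst) (2.35 CPM refed, 5.58 CPM fasted, log2 ratio -1.25) were lower, at low levels in both libraries. Pirb, named by the study as a receptor of Angptl8, had 5.0 CPM refed against 6.59 CPM fasted (log2 ratio -0.40, counting interval -0.65 to -0.15), and Gnat2, a transducin subunit known from cone photoreceptors and named by the study among food-responsive genes, had 293 counts in the refed library and 17 in the fasted library (log2 ratio 3.97).

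Bile acid genes differed in both directions, 4 of 18 higher and 3 lower by at least 2-fold. Cyp7a1, which controls the rate at which bile acids are made, had 109 CPM refed against 70.7 CPM fasted (log2 ratio 0.62), under 2-fold. Cyp8b1, which sets the share of cholic acid, was lower (344 CPM refed, 1463 CPM fasted, log2 ratio -2.09), and Cyp7b1 of the alternative pathway was higher (373 CPM refed, 161 CPM fasted, log2 ratio 1.22). The bile salt export pump Abcb11 was higher (965 CPM refed, 442 CPM fasted, log2 ratio 1.13), and the phospholipid exporter Abcb4 was lower (254 CPM refed, 730.5 CPM fasted, log2 ratio -1.53).

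Core clock genes differed strongly between the libraries. Of 22 members with at least 100 counts, 8 were at least 2-fold higher and 3 at least 2-fold lower in the refed library, and Npas2 and Bhlhe41 stayed under the count minimum. Most of the higher genes are known from other work as targets of BMAL1 and CLOCK, as are Per1 and Cry1, which were not higher. The part of these factors in the differences was not tested. Per3 stood at 21.7 CPM refed against 2.32 CPM fasted (log2 ratio 3.23, counting interval 2.93 to 3.54), Per2 at 28.8 CPM refed against 4.77 CPM fasted (log2 ratio 2.59, counting interval 2.38 to 2.81) and the repressor gene Ciart at 3.60 CPM refed against 0.734 CPM fasted (log2 ratio 2.29). Dbp, a D-box activator, stood at 33.9 CPM refed against 5.32 CPM fasted (log2 ratio 2.67) and its relative Tef at 119 CPM refed against 54.3 CPM fasted (log2 ratio 1.13). The nuclear receptors that repress Arntl were higher too, Nr1d1 with 13.1 CPM refed against 5.12 CPM fasted (log2 ratio 1.36) and Nr1d2 with 129.7 CPM refed against 61.1 CPM fasted (log2 ratio 1.09), as was Bhlhe40 (79.8 CPM refed, 20.8 CPM fasted, log2 ratio 1.94). Dbp and Nr1d1 share exon sequence with Sphk2 and Thra on the opposite strand, whose log2 ratios were -0.41 and -0.97.

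Lower in the refed library were Arntl, the gene of BMAL1, with 5.37 CPM refed against 19.0 CPM fasted (log2 ratio -1.82, counting interval -2.03 to -1.62), Nfil3, which represses at D-boxes (11.8 CPM refed, 34.9 CPM fasted, log2 ratio -1.57), and Per1 (4.83 CPM refed, 11.3 CPM fasted, log2 ratio -1.23). The sign for Per1 was opposite to that for Per2 and Per3. The remaining members stayed under 2-fold, among them Clock (log2 ratio -0.72), Cry1 (-0.44), Cry2 (0.62), Usp2 (0.93), Hlf (0.30), Noct (0.15) and Rora (-0.15). The kinase genes Csnk1d (-0.04) and Csnk1e (-0.05) were near 0.

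Set beside the DD series, refed levels of 19 of the 22 members and fasted levels of 17 lay within the DD range, and 18 and 14 without CT1 and CT17. Among the 9986 genes under 2-fold, refed levels lay above the range of all 6 libraries in 23.8% and below it in 22.4%. Their fasted levels lay above it in 19.5% and below it in 30.0%. Without CT1 and CT17 these shares were 30.5%, 33.7%, 25.2% and 41.4%, in the same order. The DD peak to nadir log2 ratio of the members ran from 0.22 (Csnk1d) to 5.97 (Dbp). A wider range takes in more levels. The pattern of the refed library over the 22 genes, as log2 levels centred on the DD mean, was most like DD at CT5 (Pearson r 0.83 across genes) and CT9 (0.69) and least like CT17 (-0.64) and CT21 (-0.64). The fasted library was most like CT1 (0.59) and CT21 (0.42) and least like CT9 (-0.45) and CT5 (-0.44). These correlations describe 1 library each over 22 genes that act on one another, and share the DD mean and the scaling. The fast of the fasted mice ended at ZT1 and the hour of the refed harvest is not given, so no shift of the clock can be read from these correlations. Some members did not follow the nearest DD time. At CT5, the nearest time, Nr1d1 was at 52.2 CPM and Dbp at 95.8 CPM, against refed levels of 13.1 and 33.9 CPM, and Per1 in the fasted library (11.3 CPM) was well above CT1 (2.17 CPM).

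**Figure D5:**
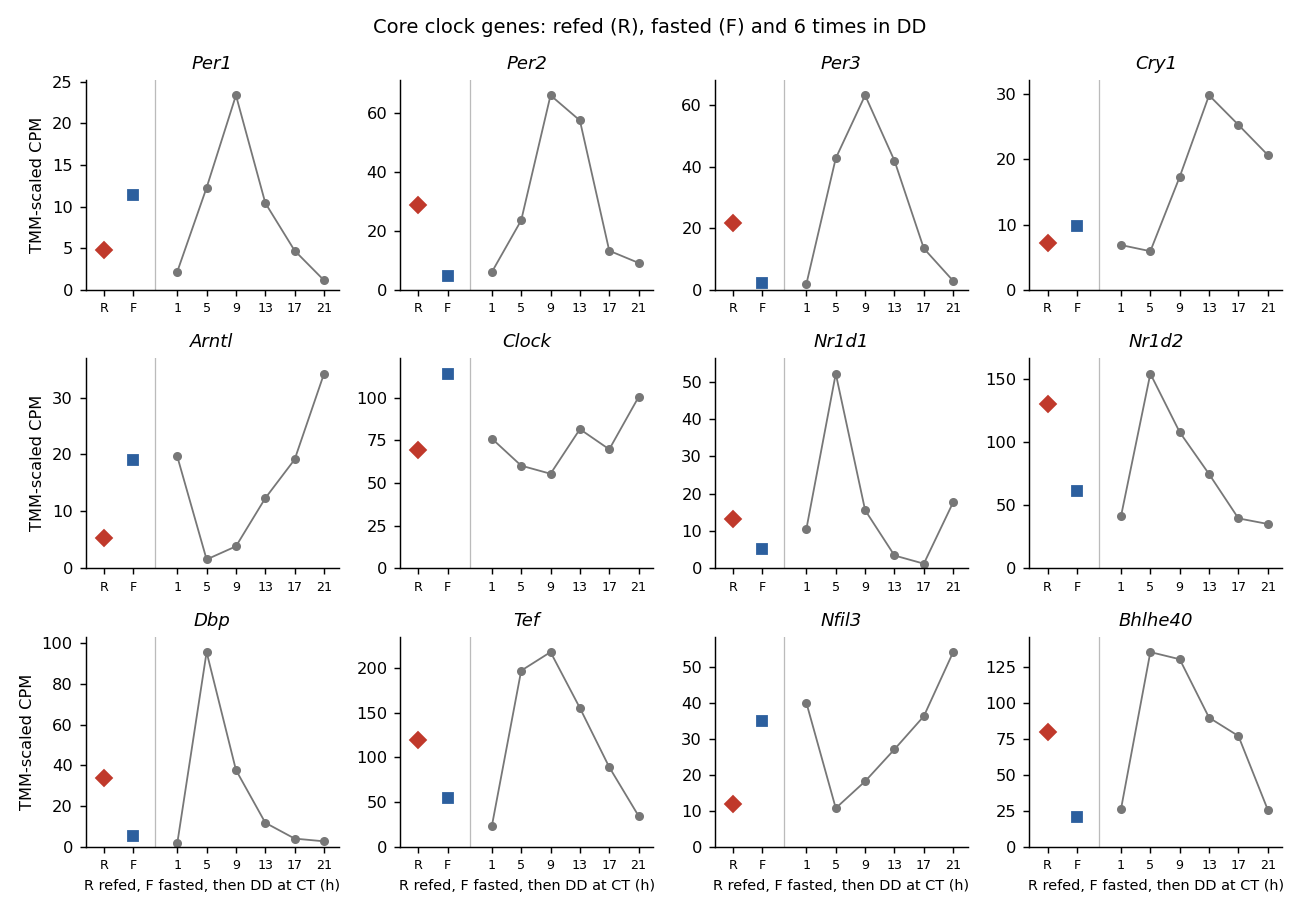
TMM-scaled CPM (y axis, from 0) of 12 core clock genes in the refed library (R, red diamond), the fasted library (F, blue square) and the 6 DD libraries by circadian time in hours (grey points and line), with 1 pooled library per point. Per2, Per3, Dbp, Tef, Nr1d1, Nr1d2 and Bhlhe40 are higher in the refed than in the fasted library, and in DD higher at CT5 than at CT1. Arntl and Nfil3 are lower in the refed library and lower at CT5 than at CT1, and Per1 is lower in the refed library but higher at CT5.

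Promoters of Per3 and Ciart are shown because these clock genes hold several copies of a clock motif within 250 bases of the start. The D-box (TTANGTAA) occurred in 1 of 17 clock genes with a window, Per3, and in 1.99% of all genes, and the E-box (CACGTG) in 4 of 17, Per1, Cry1, Tef and Ciart (23.5%), and in 12.0% of all genes. E-boxes were found in 9.32% of the genes at least 2-fold higher and in 13.6% of those at least 2-fold lower. Capitals mark the 2 D-boxes of Per3 and the 3 E-boxes of Ciart. Fgf21, the gene with the lowest ratio, is printed beside them with its 1 E-box in capitals.
Per3 (chr4:151044666-151044915, - strand): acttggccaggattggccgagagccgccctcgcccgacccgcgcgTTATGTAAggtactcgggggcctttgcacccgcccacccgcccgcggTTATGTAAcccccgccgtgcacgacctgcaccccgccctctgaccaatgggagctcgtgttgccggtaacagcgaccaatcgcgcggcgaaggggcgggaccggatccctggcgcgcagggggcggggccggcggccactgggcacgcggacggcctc
Ciart (chr3:95882229-95882478, - strand): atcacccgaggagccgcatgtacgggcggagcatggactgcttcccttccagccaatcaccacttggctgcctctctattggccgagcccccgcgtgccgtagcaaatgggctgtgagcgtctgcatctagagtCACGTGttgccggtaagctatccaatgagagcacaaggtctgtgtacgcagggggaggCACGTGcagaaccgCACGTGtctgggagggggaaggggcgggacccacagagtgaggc
Fgf21 (chr7:45615491-45615740, - strand): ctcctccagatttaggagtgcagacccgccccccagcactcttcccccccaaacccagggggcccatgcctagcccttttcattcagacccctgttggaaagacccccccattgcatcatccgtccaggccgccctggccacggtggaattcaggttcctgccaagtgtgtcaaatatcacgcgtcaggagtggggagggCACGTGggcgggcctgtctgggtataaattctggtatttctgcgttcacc

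Most endoplasmic reticulum chaperone genes were higher. These proteins fold secreted proteins and are induced when the load of unfolded protein grows. Of 20 members 11 were at least 2-fold higher and 0 lower, all lay above 0, and the median log2 ratio was 1.09. Hspa5, the chaperone BiP, stood at 2912 CPM refed against 1214 CPM fasted (log2 ratio 1.26, counting interval 1.25 to 1.28), with the refed level just above and the fasted level inside the DD range of 959.9 to 2843 CPM. Sdf2l1 (90.3 CPM refed, 20.5 CPM fasted, log2 ratio 2.14), Manf (182 CPM refed, 45.1 CPM fasted, log2 ratio 2.01) and Hyou1 (440.5 CPM refed, 112 CPM fasted, log2 ratio 1.97) had the largest ratios, and Calr, calreticulin, stood at 1409.7 CPM refed against 584 CPM fasted (log2 ratio 1.27). The transducer gene Atf6 had a log2 ratio of 0.37 and Xbp1 of 0.74. Ddit3, the gene of CHOP, was higher (12.1 CPM refed, 4.91 CPM fasted, log2 ratio 1.31), while the amino acid stress genes Atf5 (75.2 CPM refed, 254 CPM fasted, log2 ratio -1.76) and Trib3 (1.79 CPM refed, 4.89 CPM fasted, log2 ratio -1.45) were lower and Atf4 differed little (-0.25).

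Heat shock and cold-inducible genes differed less, 3 of 15 higher and 2 lower. Hspa1a (6.06 CPM refed, 0.826 CPM fasted, log2 ratio 2.87), Hspa1b (72.3 CPM refed, 20.3 CPM fasted, log2 ratio 1.84) and Hsph1 (log2 ratio 1.02) were higher, and Hspa1a and Hspa1b are near-identical copies. The 2 lower members were the cold-inducible RNA-binding protein genes Cirbp (3.46 CPM refed, 16.2 CPM fasted, log2 ratio -2.23) and Rbm3 (15.9 CPM refed, 38.4 CPM fasted, log2 ratio -1.27), which fall when temperature rises. Hspa8 (0.12) and Hsp90ab1 (0.32) differed by less than 2-fold. In promoters, the heat shock element (GAANNTTC) was found in 8 of 10 members with a window (80.0%) and in 7.18% of all genes, among members both with and without a 2-fold difference, and not in Cirbp. The CCAAT box was found in 16 of 17 chaperone genes of the endoplasmic reticulum (94.1%) and in 43.4% of all genes. The 250 bases before the start are shown for Hspa5, with its 4 CCAAT boxes in capitals, and for Hspa1a, with its heat shock element in capitals.
Hspa5 (chr2:34771840-34772089, + strand): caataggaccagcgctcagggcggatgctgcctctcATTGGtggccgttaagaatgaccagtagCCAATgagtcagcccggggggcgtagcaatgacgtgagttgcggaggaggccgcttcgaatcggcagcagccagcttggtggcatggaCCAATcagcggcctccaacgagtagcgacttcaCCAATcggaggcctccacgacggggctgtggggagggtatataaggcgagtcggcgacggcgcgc
Hspa1a (chr17:34972157-34972406, - strand): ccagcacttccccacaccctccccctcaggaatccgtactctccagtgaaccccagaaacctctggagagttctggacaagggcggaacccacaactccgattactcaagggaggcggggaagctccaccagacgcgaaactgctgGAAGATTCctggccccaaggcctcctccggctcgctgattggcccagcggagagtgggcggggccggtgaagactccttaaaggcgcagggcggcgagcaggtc

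Several cytoskeletal genes were also higher. Of 16 actin, tubulin and SRF target genes 7 were at least 2-fold higher and 0 lower, with Tagln (20.8 CPM refed, 3.92 CPM fasted, log2 ratio 2.40), Myl9 (8.43 CPM refed, 1.56 CPM fasted, log2 ratio 2.43) and Tuba1c (121 CPM refed, 36.5 CPM fasted, log2 ratio 1.73) as examples, and Actb just under 2-fold (1002 CPM refed, 534 CPM fasted, log2 ratio 0.91). Tagln, Myl9 and Acta2 (4.39 CPM refed, 0.826 CPM fasted, log2 ratio 2.41) mark smooth muscle and activated stellate cells. With a minimum of 500 counts 4 members remained at least 2-fold higher. In whole liver, fewer cells of a type and less RNA per cell cannot be told apart. Of the 10 stellate cell markers 4 were at least 2-fold higher, Col3a1 (87.8 CPM refed, 19.0 CPM fasted, log2 ratio 2.21), Col1a1 (log2 ratio 1.5), Lrat (1.05) and Acta2, and Dcn (149.7 CPM refed, 243 CPM fasted, log2 ratio -0.70) and Reln (189 CPM refed, 246 CPM fasted, log2 ratio -0.38) were on the other side of 0. The summed level of this marker list was 603 CPM refed against 645 CPM fasted. The part of these cells in the cytoskeletal result was not tested.

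Some cell cycle genes were higher. Mcm5 (9.58 CPM refed, 1.61 CPM fasted, log2 ratio 2.58), Mcm6 (13.1 CPM refed, 2.73 CPM fasted, log2 ratio 2.27) and Mcm2 (8.45 CPM refed, 2.71 CPM fasted, log2 ratio 1.64), subunits of the replicative helicase, and cyclin D1 (Ccnd1) (25 CPM refed, 10.2 CPM fasted, log2 ratio 1.30) were higher, and the helicase subunit genes Mcm3 (log2 ratio 0.95) and Mcm7 (0.43) and the mitotic genes Mki67 (log2 ratio -0.35), Top2a (0.25) and Cdk1 (0.06) stayed under 2-fold. In all, 5 of 16 members were at least 2-fold higher and 0 lower, and 2 members with a minimum of 500 counts. Cdkn1a, the cell cycle inhibitor p21, was lower, with 24 counts in the refed library and 420 in the fasted library (log2 ratio -4.27).

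Glucocorticoid targets were mostly lower, 8 of 15 against 1 higher, with a median log2 ratio of -1.16. The metallothionein genes Mt1 (24.5 CPM refed, 149 CPM fasted, log2 ratio -2.60) and Mt2 (4.23 CPM refed, 103 CPM fasted, log2 ratio -4.60), which bind zinc and copper, had large ratios, and both libraries lay inside their DD ranges, 0.475 to 426 CPM for Mt2. Fkbp5 (19.8 CPM refed, 50.6 CPM fasted, log2 ratio -1.36), Sgk1 (25.2 CPM refed, 77.1 CPM fasted, log2 ratio -1.62) and Klf9 (48.5 CPM refed, 112 CPM fasted, log2 ratio -1.21), direct targets of the receptor, were lower, whereas Tat (log2 ratio -0.10), Tsc22d3 (0.70) and Dusp1 (0.08) were not. Lcn2 was the member that was higher (33.0 CPM refed, 11.8 CPM fasted, log2 ratio 1.49), and it is also an acute phase gene.

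Acute phase genes differed in both directions, 6 higher and 3 lower of 29, and 22 members lay above 0. The lowest ratio of this list, -4.60, was that of the metallothionein gene Mt2, also counted above as a glucocorticoid target. Saa4 (389.5 CPM refed, 75.8 CPM fasted, log2 ratio 2.36), Steap4 (249 CPM refed, 59.7 CPM fasted, log2 ratio 2.06) and Fga (9627 CPM refed, 3974 CPM fasted, log2 ratio 1.28) were higher, while Hp (log2 ratio 0.05), C3 (0.03) and Crp (0.06) were near 0. The summed level of the list was 57306 CPM refed against 42386 CPM fasted, inside the range of the 6 DD libraries and above the range of 27638 to 38977 CPM without CT1 and CT17. Of 12 chemokine and cytokine genes 5 were at least 2-fold higher and 1 lower, with 3 higher under DESeq2 size factors and 1 with a minimum of 500 counts. The chemokines Cxcl1 and Ccl2, which attract neutrophils and monocytes, had log2 ratios of 3.25 and 3.25 at low levels (7.62 and 2.19 CPM refed, 0.803 and 0.23 CPM fasted), and Cxcl13 was lower (1.19 CPM refed, 6.79 CPM fasted, log2 ratio -2.52). Neutrophil markers were near 0 in both libraries, with a summed level of 1.79 CPM refed against 5.30 CPM fasted, and of 10 markers only S100a9 reached the count minimum.

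Drug-metabolising P450 genes differed in both directions, 4 at least 2-fold higher and 4 at least 2-fold lower of 20. Cyp2c29 and Cyp2c55 (29.7 CPM refed, 1.91 CPM fasted, log2 ratio 3.96) of the Cyp2c family, Cyp2a5 (498 CPM refed, 114 CPM fasted, log2 ratio 2.12) and Cyp1a2 (752 CPM refed, 190.0 CPM fasted, log2 ratio 1.98) were higher, and Cyp2b10, a target of the receptor CAR (41.9 CPM refed, 94.3 CPM fasted, log2 ratio -1.17), and Cyp3a25 (log2 ratio -1.06) were lower. Nr1i3, the gene of CAR, was lower as well (46.0 CPM refed, 98.1 CPM fasted, log2 ratio -1.09). Glutathione transferase genes accounted for the 4 of 17 redox defence genes that were at least 2-fold higher, among them Gstm3 (39.1 CPM refed, 2.50 CPM fasted, log2 ratio 3.97) and the abundant Gsta3 (1686 CPM refed, 446 CPM fasted, log2 ratio 1.92). Nudt7, a peroxisomal enzyme that degrades CoA, stood at 877 CPM refed against 166 CPM fasted (log2 ratio 2.41), opposite to Vnn1.

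Amino acid breakdown had 4 of 23 members at least 2-fold lower and 0 higher. The tryptophan enzyme Tdo2 (1497 CPM refed, 3627 CPM fasted, log2 ratio -1.28) and the aspartate aminotransferase gene Got1 (149 CPM refed, 380.5 CPM fasted, log2 ratio -1.35) were lower, and Tat and Hal (log2 ratio -0.33) stayed under 2-fold. In the urea cycle only Asl was beyond 2-fold (315 CPM refed, 673 CPM fasted, log2 ratio -1.10), and Cps1 was at 5746 CPM refed against 5916 CPM fasted. Haem synthesis starts with Alas1, which was lower (262 CPM refed, 575 CPM fasted, log2 ratio -1.13), and other iron and haem genes did not differ by 2-fold.

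Housekeeping complexes differed little. None of 33 ribosomal protein genes, 26 respiratory chain genes, 21 proteasome genes and 18 genes of ribosome biogenesis differed by 2-fold, with medians of 0.22, 0.12, -0.02 and 0.19. In autophagy and lysosome genes 3 of 19 were lower, with Bnip3 (136 CPM refed, 336 CPM fasted, log2 ratio -1.30) and Map1lc3a (log2 ratio -1.22) among them. Hepatocyte markers had 0 of 10 members beyond 2-fold and a median of -0.33. Endothelial markers were as even, with 0 of 10 beyond 2-fold. Of the 9 macrophage markers 1 was lower, Marco (4.27 CPM refed, 23.2 CPM fasted, log2 ratio -2.44), and Clec4f, the defining Kupffer cell gene, had a log2 ratio of -0.08. Cholangiocyte markers summed to 81.2 CPM refed against 43.3 CPM fasted, with the fasted sum below the DD range of 49.8 to 243 CPM. Without CT1 and CT17 that range was 49.8 to 78.8 CPM, and the refed sum lay above it. Erythroid markers summed to 726 CPM refed against 491 CPM fasted, both above the DD range of 296 to 466 CPM. T, NK and B cell markers summed to 4.29 CPM refed against 8.77 CPM fasted. The part of these cells in the results above was not tested. Of 9 pancreatic acinar markers 2 reached the count minimum, and both were at least 2-fold higher in the refed library. The list summed to 15.3 CPM refed against 6.59 CPM fasted, with a DD range of 12.3 to 25.6 CPM. Bhlha15, a secretory cell factor counted among these markers, had 156 counts in the refed library and 8 in the fasted library. The acinar digestive enzyme genes Prss2, Cpb1, Ctrb1 and Cela3b had 0 counts in the refed library. The skeletal muscle markers had 0 members at the count minimum and summed to 0.875 CPM refed against 0.803 CPM fasted, and of the fat cell markers Fabp4, which other cells also express, reached it, at a summed level of 15.1 CPM refed against 11.1 CPM fasted.

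The 2 libraries were last placed against the DD range. Among the 601 genes at least 2-fold higher in the refed library, the refed level lay above all 6 DD libraries in 250 (41.6%) and the fasted level below all of them in 495 (82.4%). Among the 9986 genes under 2-fold these shares were 23.8% and 30.0%. For the 380 lower genes the refed level lay below the DD range in 132 (34.7%) and the fasted level above it in 293 (77.1%), against 22.4% and 19.5% of genes under 2-fold. Without CT1 and CT17, the refed level lay above the DD range in 335 higher genes (55.7%) and the fasted level below it in 531 (88.4%), against 30.5% and 41.4% of genes under 2-fold. Among the lower genes the refed level then lay below the range in 163 (42.9%) and the fasted level above it in 314 (82.6%), against 33.7% and 25.2%. Both levels were inside the range in 51 higher genes (8.49%) and 36 lower genes (9.47%), against 31.9% of genes under 2-fold. Without the CT1 and CT17 libraries both levels were inside the range in 23 higher and 22 lower genes, and in 16.8% of genes under 2-fold. The refed to fasted ratio exceeded the whole DD peak to nadir ratio in 438 higher genes (72.9%) and 256 lower genes (67.4%), and in 18.7% of genes under 2-fold. Between single pairs of DD libraries, 1.59% (CT9 and CT13) to 9.15% (CT1 and CT13) of genes differed at least 2-fold, against 8.95% between the refed and fasted libraries. Without CT1 and CT17 the DD pairs ranged from 1.59% to 3.94% (CT9 and CT21), below the value for refed and fasted liver.

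Transcripts of 1 gene had similar ratios. In 2523 genes at least 2 transcripts reached 100 counts in either library, and the ratios of the transcripts of a gene differed by a median of 0.014 on the log2 scale. In 4 genes they differed by 1 or more, in 0 genes by 2 or more, and no gene had transcripts at least 2-fold different in opposite directions. Transcripts of a gene share exons and may share counts.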

How the data were processed

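PolyA+ RNA of pooled mouse liver was sequenced as paired 150-base reads, 1 library per condition. The deposited tables hold whole-number counts per RefSeq transcript, made by the authors with TopHat2 2.0.13 on GRCm38 (mm10) according to the submitters' processing notes. Neither the program that counted reads nor its handling of strand is named in the sources used here. The study's methods also speak of FPKM, which is not the unit of the tables. Of 27457 transcripts per table, 26386 were named by RefSeq and 119 by GENCODE, and the other 952 (0.346% to 0.817% of counts) were left out. The transcript with the highest total represented each of 20409 genes. Counts were scaled by TMM over 9 libraries (edgeR 4.0.16, R 4.3.3), and ratios carry exact (Clopper-Pearson) 95% intervals. Python 3.11.15 with scipy 1.17.1 was used, and the steps were tested on simulated data. A gene counted as higher or lower at 2-fold, at a minimum of 100 counts in either library. No test across genes was made, because a condition has 1 library.

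Genes were named by rule: those the study names for feeding or the clock, the 15 largest and 15 smallest ratios, the 10 largest gains and losses in CPM, all core clock genes, up to 8 members of each of 54 gene lists with the largest ratios, and textbook members of the lists. Predicted genes were not named, and some genes that the rule takes in are not reported here. Genes named beyond this rule, chiefly list members near 0, opposite-strand partners and cell type markers (11 lists), were chosen after their values were seen. The members and lists were chosen with earlier results of these data known, and several lists share members. DESeq2 1.42.0 size factors, total counts, TMM over both libraries alone, unscaled counts, minimums of 1, 10 and 500 counts, sums over transcripts, every named transcript, and the DD range without CT1 and CT17 were tried as alternatives.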

Additional observations from a re-analysis of the deposited data

How the results depend on the processing

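No paired analysis was possible because each condition has 1 pooled library, and no library could be left out of the refed to fasted ratio. Of 175 alternative values for counts of genes, of list members and of genes outside the DD range, 160 lay within 1.5 times the reported count and 15 did not. Of 446 alternative medians of 64 lists, 15 moved by 0.2 or more, all under another count minimum, 6 of them upward. Higher genes numbered 601 and lower genes 380 at 2-fold. A minimum of 1 count gave 1457 higher and 2544 lower genes, a minimum of 10 gave 1201 lower genes, and a minimum of 500 gave 249 lower genes. These minimums change which genes are tested. With a minimum of 1 count, setting 0 counts at 3 can also reverse the direction of genes with very few counts. The 2-fold counts and the share of higher genes under that minimum are therefore not reliable in direction. At 8-fold the minimum of 500 gave 27 higher and 17 lower genes, and minimums of 10 and 1 gave 113 and 151 lower genes. The share of 2-fold genes that were higher was 61.3%, against 42.5% with a minimum of 10, 36.4% with a minimum of 1, 56% with DESeq2 size factors, 62.9% with total counts and 73.2% unscaled. Lists changed by over 1.5 times in their 2-fold counts in 5 cases. Mitochondrial fatty acid oxidation had 4 lower members unscaled. With a minimum of 500 counts, 4 actin, tubulin and SRF target genes, 2 cell cycle genes and 1 chemokine or cytokine gene were higher, and DESeq2 size factors gave 3 chemokine or cytokine genes. Without CT1 and CT17, 23 higher and 22 lower genes had both levels inside the DD range. Among 481 named genes with a ratio, none of those at least 2-fold different changed sign under the 4 other scalings or the sum of transcripts, and 44 genes crossed 2-fold in at least 1 of them.

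Without replicate libraries, differences between mice and between libraries of 1 condition are unknown, and the intervals cover counting error only. Feeding state and hour of harvest cannot be told apart, since an hour for the end of treatment is given only for the fasted mice. Levels of 100 counts leave wide intervals, so ratios of genes near the minimum are less precise than those of abundant genes. Pooling hides single animals.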

Other observations

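Several gene groups outside the account above held single genes or a few genes that differed by at least 2-fold. Of 20 complement and coagulation genes F11, coagulation factor XI, was at least 2-fold higher in the refed library (71.7 CPM refed, 19.1 CPM fasted, log2 ratio 1.91), and 0 were lower. In the pyruvate dehydrogenase list Pdhb, a subunit of the complex, was higher (215 CPM refed, 101 CPM fasted, log2 ratio 1.09) and Pdk4, described above, was lower, while the other kinase genes Pdk1 (log2 ratio 0.52) and Pdk2 (0.33) differed by less than 2-fold. Choline kinase beta (Chkb) was lower (10.9 CPM refed, 37.5 CPM fasted, log2 ratio -1.78), and the related Chka had a log2 ratio of -0.21. Chkb shares exon sequence on the same strand with the predicted gene that also overlaps Cpt1b. Of 14 genes of serine, one-carbon and methionine metabolism Mat1a was the 1 lower and Mthfd2, a mitochondrial folate enzyme, the 1 higher (2.44 CPM refed, 1.17 CPM fasted, log2 ratio 1.06). Among 13 carriers of amino acids and dicarboxylates Slc3a1 (80.0 CPM refed, 27.3 CPM fasted, log2 ratio 1.55), Slc38a3 (log2 ratio 1.36) and Slc13a3 (1.34) were higher, and the cationic amino acid carrier Slc7a2 was lower (453 CPM refed, 1188 CPM fasted, log2 ratio -1.39). Of 17 genes in a list of glucuronosyl-, sulfo- and glutathione transferases 0 were beyond 2-fold in either direction. Gstm3, Gsta3 and other glutathione transferase genes that were at least 2-fold higher were counted among the redox defence genes instead.

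Of 20 nuclear receptor genes Nr0b2, the small heterodimer partner, reached 2-fold higher (69.8 CPM refed, 34.8 CPM fasted, log2 ratio 1.00), and Esrrg (1.85 CPM refed, 5.19 CPM fasted, log2 ratio -1.48) and Nr1i3 were lower, with Rxra (log2 ratio -0.39), Hnf4a (-0.39) and Nr1h4 (-0.23), the bile acid receptor gene, under 2-fold. Among 9 immediate early genes Atf3 was higher (2.17 CPM refed, 0.964 CPM fasted, log2 ratio 1.17) and Jun lower (9.35 CPM refed, 30.1 CPM fasted, log2 ratio -1.69). Of 14 interferon-stimulated genes Cxcl10 (3.39 CPM refed, 0.803 CPM fasted, log2 ratio 2.08) and Isg15 (7.52 CPM refed, 3.03 CPM fasted, log2 ratio 1.31) were higher and 0 lower, while Ifit1 (log2 ratio 0.21) and Irf7 (-0.28) were near 0. The major urinary protein genes of the list of male-biased genes stayed under 2-fold, from -0.88 for Mup3 to 0.67 for Mup17. In the pericentral and periportal list Cyp1a2 was the 1 member at least 2-fold higher and Pck1 the 1 lower of 18, with Glul (log2 ratio 0.35), Axin2 (-0.30) and Gls2 (0.08) near 0.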
